A study of Mus musculus with 9 samples.

Results

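The genes for voltage-gated, potassium and pacemaker ion channels were followed in HL-1 cells, an immortalised mouse atrial cardiomyocyte line. A gene entered the set when its symbol began with Kcn (potassium channels), with Cacna, Cacnb or Cacng (calcium channels), or with Scn (sodium channels) or Hcn (pacemaker channels) and a digit. Of 143 such symbols, the antisense genes Kcnab3os and Kcnd3os were left out, which gave 141 of the 25175 symbols measured. The set held 97 potassium, 26 calcium, 14 sodium and 4 HCN genes. The 4 symbols kept by this spelling, the RNAs Kcnmb4os1, Kcnmb4os2 and Kcnq1ot1 and the regulator Kcnrg, are not channel subunits, and none of them reached the expression threshold used below.

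Poly(A) RNA was sequenced from 9 libraries of HL-1 cells grown in Claycomb medium. The 3 groups of 3 libraries had received vehicle (0.1% DMSO), ivermectin at 5 µM or importazole at 10 µM, each for 24 h. Ivermectin is an antiparasitic drug also used to block the importin α/β receptor pair of nuclear import, and importazole is an inhibitor of importin-β. The compounds were given at different doses, and whether those groups also held DMSO is not stated in the labels. The labels also do not say whether the libraries were separate cultures, so p-values cover the spread among these libraries alone, and that spread may be technical.

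In heart muscle the action potential is started by sodium channels, held up by L-type calcium channels and ended by several potassium channels. A pore-forming subunit sets which ion passes, and auxiliary subunits change how many channels reach the membrane and how fast they open and close. Atrial cells are known for potassium channels that open on vagal stimulation, and pacemaker cells for HCN channels and T-type calcium channels.

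Values are FPKM, fragment numbers divided by the length of the transcript and by the mapped total, so that levels of different genes can be compared per length. Sequencing depth is unknown, because the values did not resolve into whole reads. Summed FPKM per library ranged from 365259 to 416748, and 11055 to 11200 symbols per library were at 1 FPKM or more. One very abundant transcript, Yam1, was listed at 0 in vehicle library 2 and ivermectin library 3 and at 24051 to 41567 FPKM in the other 7. All 10 atrial cardiomyocyte markers examined reached 1 FPKM in at least 3 libraries. Their means ran from 1.26 FPKM for Nppb, 1.95 for Sln and 2.84 for Gja5 up to 2250 for Myl7. The threshold was also reached by 3 of 4 smooth muscle markers, with sums of 1158 to 1404 FPKM led by Acta2 and Tagln. It was reached by 4 of 7 nodal, 2 of 4 ventricular and 2 of 5 skeletal muscle markers. For other cell types it was 1 of 6 fibroblast, 2 of 5 endothelial, 1 of 4 immune and 1 of 7 neuronal markers, with sums of at most 1.54, 11.5, 2.90 and 12.2 FPKM in any library.

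A gene was said to be expressed when it reached 1 FPKM in 3 or more of the 9 libraries. By this rule 33 of the 141 channel genes (23.4%) were expressed, against 11337 of all 25175 symbols (45.0%). Of the other 108, 50 exceeded 0.1 FPKM in at least 1 library and 58 stayed at or under 0.1 FPKM in all 9. No channel gene was listed at 0 in all 9 libraries, whereas 2421 symbols of the whole table were. Traces down to thousandths of an FPKM cannot be read as expression or as its absence at an unknown depth.

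Calcium channel genes were expressed more often than those of potassium channels, at 11 of 26 (42.3%) and 16 of 97 (16.5%). Sodium channels had 3 of 14 (21.4%) and HCN channels 3 of 4 (75%). Within the calcium class all 4 β subunits, which chaperone and tune the pore, were expressed, as were 3 of 4 α2δ subunits, which raise surface levels of the channel. The pores followed with 4 of 10, and none of the 8 γ subunits was expressed. Among potassium channels, 7 of 40 voltage-gated pores were expressed, 4 of 16 auxiliary subunits, 3 of 15 inward rectifiers, 1 of 14 two-pore-domain channels and 1 of 8 calcium- or sodium-activated pores. The sodium class held 2 expressed pores of 10 and 1 β subunit of 4. These shares are a description of a rule on level, and no test was made of them.

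**Figure D1:**
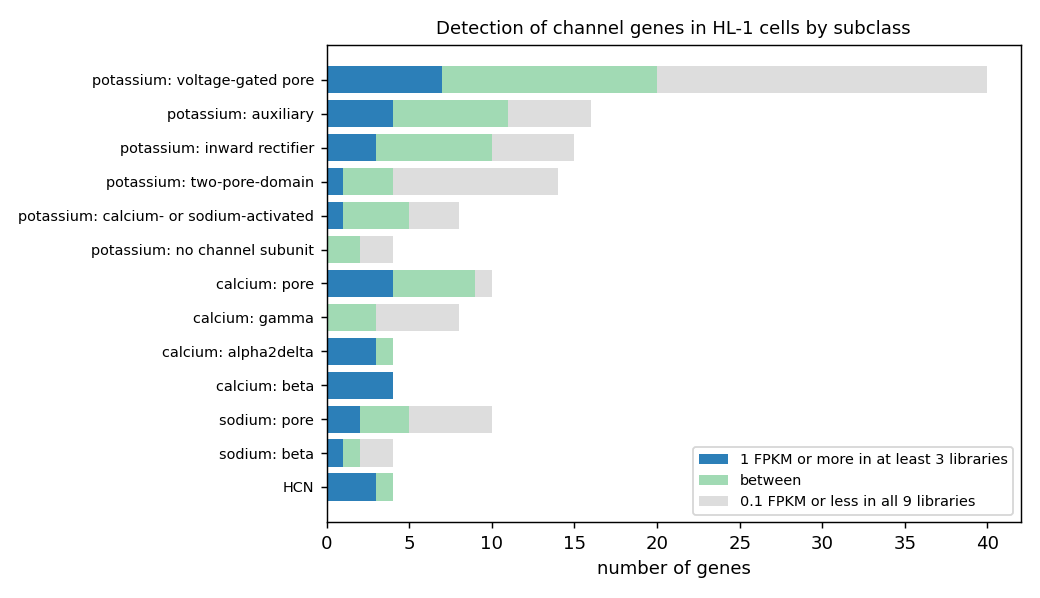
Number of channel genes in each subclass that reached 1 FPKM in 3 or more of the 9 libraries, that lay between, or that stayed at or under 0.1 FPKM in all 9. All 4 calcium channel β subunits reached the threshold and none of the 8 γ subunits did.

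Genes close to the threshold show how little separates the classes there. Just inside were Kcnab3 at a mean of 1.03 FPKM (0.793 to 1.36 over the 9 libraries), Hcn4 at 1.12 FPKM (0.804 to 1.57) and Kcnu1 at 1.24 FPKM (0.854 to 2.20). Just outside were Kcnip1 at 0.918 FPKM (0.612 to 1.51), Cacna1a at 0.719 FPKM (0.207 to 2.20) and Kcnd1 at 0.536 FPKM (0.344 to 0.817). Hcn4 passed through its 3 vehicle libraries and 1 importazole library, and no ivermectin library reached 1 FPKM, so its passing was not independent of treatment. Kcnab3 passed in 5 libraries, among them all 3 of vehicle, and would not have passed without those. Of the 33 expressed genes, 29 reached 1 FPKM in all 9 libraries. Requiring 0.5 or 2 FPKM gave 38 or 29 expressed genes.

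Promoter windows of the expressed channel genes and of the other channel genes differed in base composition. RefSeq windows on GRCm38.p6, from 250 bases before to 50 bases after an annotated start, were matched by symbol for 102 of the 141 genes, of which 19 were among the 33 expressed. Because some genes have several starts, this gave 29 windows for expressed genes and 108 for the others. The median number of CpG dinucleotides per 300 bases was 24 in windows of expressed channel genes and 9 in those of the other channel genes. Over the whole table the corresponding medians were 21 for genes that reached the threshold and 5 for those that did not, so the channel genes differed in the same direction as all genes. The letters TATAAA, searched on both strands, occurred in 1 of 29 windows of expressed genes (3.45%) and 5 of 108 of the others (4.63%), against 6.71% of windows of all genes that reached the threshold, 18.2% of those that did not and 13.6% of all 32851 windows. A match or its lack describes letters and not a binding site.

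The windows of 4 genes are printed 5′ to 3′ with every CpG in capitals. They were chosen after the values were seen, to show the most abundant channel gene (Kcnh2), the one gene past the test in any comparison (Cacna2d1), and the pores of currents known from heart muscle that were at trace level here (Kcnj2, Kcna5). Cacna2d1 lies at chr5:15934441-15934740 on the plus strand with 42 CpG, and Kcnh2 at chr5:24329542-24329841 on the minus strand with 19. Kcnj2 lies at chr11:111065914-111066213 on the plus strand with 18 CpG, and Kcna5 at chr6:126535506-126535805 on the minus strand with 4.
Cacna2d1: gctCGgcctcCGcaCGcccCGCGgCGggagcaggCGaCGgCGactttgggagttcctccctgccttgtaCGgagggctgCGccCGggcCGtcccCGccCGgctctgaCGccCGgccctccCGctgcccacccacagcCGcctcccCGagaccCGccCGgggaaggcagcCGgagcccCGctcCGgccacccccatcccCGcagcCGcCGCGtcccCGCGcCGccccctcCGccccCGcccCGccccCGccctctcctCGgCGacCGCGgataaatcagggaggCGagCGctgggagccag
Kcnh2: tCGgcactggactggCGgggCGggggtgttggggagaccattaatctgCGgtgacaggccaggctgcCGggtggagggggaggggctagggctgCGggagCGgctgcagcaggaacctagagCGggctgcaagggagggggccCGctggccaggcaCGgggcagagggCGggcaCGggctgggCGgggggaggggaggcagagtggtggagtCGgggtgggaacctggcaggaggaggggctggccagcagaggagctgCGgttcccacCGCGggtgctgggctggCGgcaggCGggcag
Kcnj2: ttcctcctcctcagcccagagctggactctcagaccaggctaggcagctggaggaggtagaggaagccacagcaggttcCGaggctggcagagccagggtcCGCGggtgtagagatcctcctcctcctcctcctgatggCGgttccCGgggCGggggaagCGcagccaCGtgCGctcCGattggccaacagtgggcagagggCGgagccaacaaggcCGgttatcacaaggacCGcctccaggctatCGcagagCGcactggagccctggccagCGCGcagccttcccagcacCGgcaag
Kcna5: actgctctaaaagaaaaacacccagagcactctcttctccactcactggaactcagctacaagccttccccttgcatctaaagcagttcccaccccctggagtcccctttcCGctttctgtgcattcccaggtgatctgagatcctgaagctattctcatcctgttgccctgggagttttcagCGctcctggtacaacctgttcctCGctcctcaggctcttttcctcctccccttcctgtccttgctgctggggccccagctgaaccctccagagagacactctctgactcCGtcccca
The Kcnh2 window belongs to a start inside the gene as GENCODE M21 draws it, not to its 5′ end, and the Kcna5 window to a RefSeq start upstream of the GENCODE one. Their CpG numbers hold for these windows alone.

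The most abundant channel gene was Kcnh2, which encodes the pore of the rapid delayed rectifier current that ends the action potential (GRCm38 chr5:24319589-24351604, minus strand). Its levels were 165, 149 and 138 FPKM in the vehicle libraries, 143, 136 and 118 with ivermectin, and 135, 145 and 136 with importazole. The groups overlapped, and Kcnh2 made up 35.8% of the summed FPKM of all potassium genes over the 9 libraries. Others of the subclass were lower. Kcng2, an electrically silent pore subunit that modifies other voltage-gated channels, had a mean of 33.6 FPKM (28.7 to 46.4). Kcnq1, the pore of the slow delayed rectifier, had 21.5 FPKM (19.5 to 24.3). Kcnh6, a relative of Kcnh2, and the pore Kcna7 had 1.97 and 1.95 FPKM.

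Among inward rectifiers, Kcnj5 (chr9:32314707-32344350, minus strand), a subunit of the acetylcholine-activated channel, was second of all 141 genes. It stood at 82.4, 81.6 and 85.3 FPKM with vehicle, 79.9, 79.8 and 78.1 with ivermectin, and 75.2, 77.6 and 77.2 with importazole. Every library of either compound was under every vehicle library, by a few FPKM. Its partner Kcnj3 had a mean of 10.6 FPKM (9.81 to 11.4). Kcnj11, the pore of the ATP-sensitive channel, had 21.4 FPKM (18.5 to 26.1), while the other such pore, Kcnj8, had a mean of 0.0194 FPKM. The sulfonylurea receptors that complete that channel were split alike, with Abcc8 expressed and Abcc9 at a mean of 0.0740 FPKM.

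Auxiliary potassium channel subunits were led by Kcne1, the partner of the Kcnq1 pore, at a mean of 44.9 FPKM (35.3 to 53.8; chr16:92345982-92359468, minus strand). Kcnab2, a cytoplasmic β subunit, had 9.31 FPKM, and Kcnmb4, a β subunit of the large-conductance calcium-activated channel, had 1.24 FPKM, but it shares 355 and 693 exon bases with the opposite-strand genes Kcnmb4os1 and Kcnmb4os2, whose reads cannot be told apart without strand. The pore that Kcnmb4 is known to accompany, Kcnma1, had 0.0217 FPKM. Kcnk3, an acid-sensitive leak channel found in atrium, was the only expressed two-pore-domain gene, at 8.33 FPKM (6.68 to 10.3). Kcnu1, known as a sperm channel, was the only gene of the calcium- or sodium-activated subclass to pass.

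The T-type channel Cacna1h led the calcium class with a mean of 39.0 FPKM (32.2 to 47.2; chr17:25374285-25433783, minus strand), or 24.1% of the class sum over the 9 libraries. Its relative Cacna1g had 25.8 FPKM (24.0 to 27.1; chr11:94408391-94474198, minus strand). Both T-type pores known from heart muscle were thus above the main cardiac L-type pore Cacna1c, at 19.0 FPKM (16.7 to 21.9; chr6:118587240-119196418, minus strand). Cacna1d, the L-type pore of pacemaker tissue, had 2.41 FPKM. The β subunits were Cacnb3 at 31.4 FPKM (28.5 to 33.3), Cacnb2 at 12.8, Cacnb1 at 3.985 and Cacnb4 at 2.68. Cacnb4 shares 1433 exon bases with the opposite-strand gene A430018G15Rik (mean 0.520 FPKM), whose reads cannot be told apart without strand. The α2δ subunits were Cacna2d1 at 14.7 FPKM, Cacna2d2 at 5.22 and Cacna2d3 at 2.46.

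Sodium channel genes were low as a class. Scn10a, a pore best known from sensory neurons, was at 2.79, 2.50 and 2.24 FPKM with vehicle, 2.05, 2.50 and 2.20 with ivermectin, and 1.88, 2.28 and 2.54 with importazole, and the groups overlapped. Among HCN channels, Hcn2 had a mean of 12.6 FPKM (11.4 to 14.1), and Hcn3 stayed at 0.445 FPKM.

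**Figure D2:**
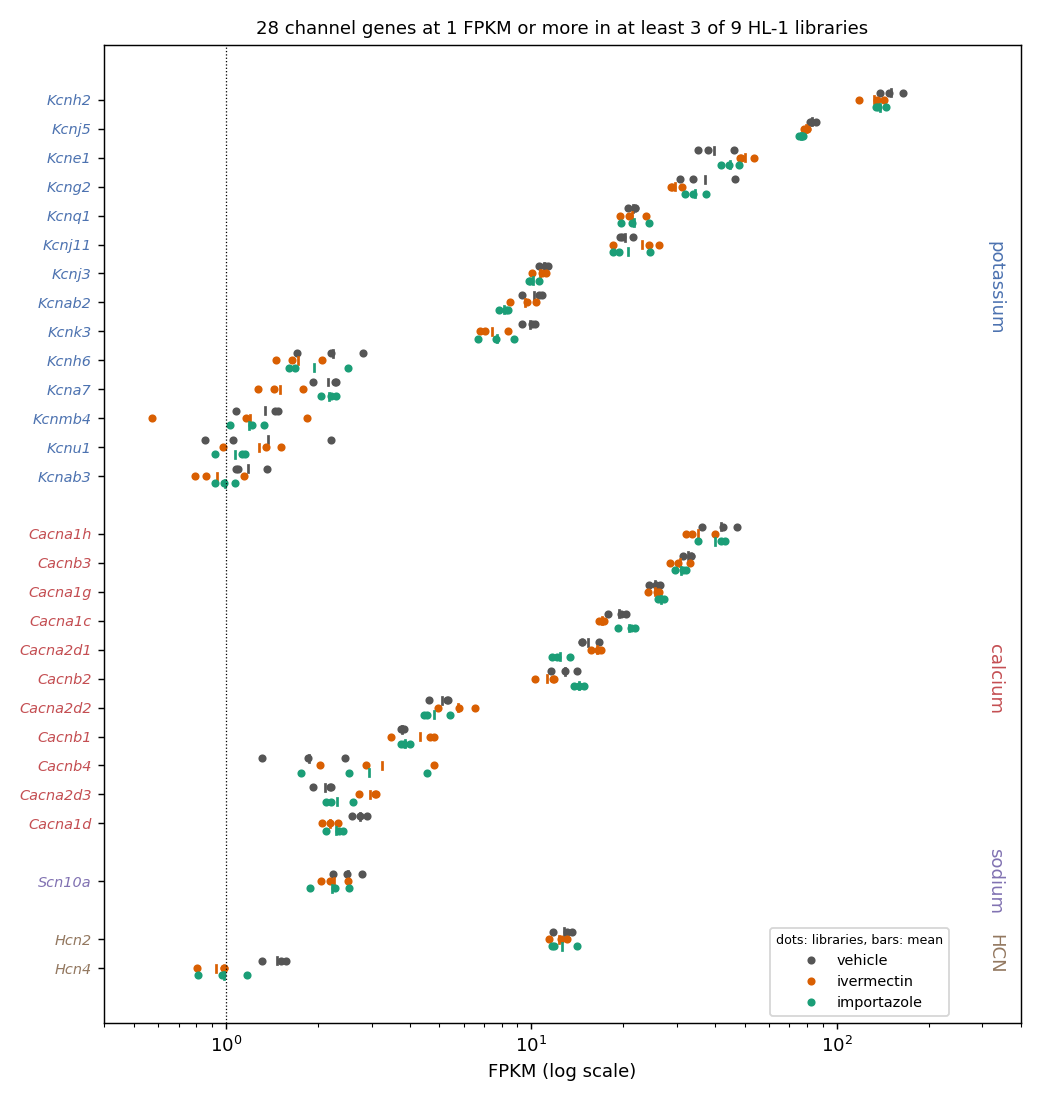
FPKM of 28 of the 33 expressed channel genes on a log axis, with 1 point per library, coloured by treatment group. Kcnh2 lies highest, at 118 to 165 FPKM, and Kcnab3 has the lowest mean, with libraries at 0.793 to 1.36.

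Neighbours in the order of level often had overlapping ranges over the 9 libraries. These ranges pool the 3 groups, so an overlap does not say which gene was higher within a library. Kcnh2, at 118 FPKM or more, and Kcnj5, at 75.2 to 85.3, stood clear of each other and of all other genes. From Kcne1 (35.3 to 53.8) through Cacna1h (32.2 to 47.2), Kcng2 (28.7 to 46.4) and Cacnb3 (28.5 to 33.3), each range overlapped the next. Cacna1g (24.0 to 27.1) lay below Cacnb3, and from it through Kcnq1 (19.5 to 24.3), Kcnj11 (18.5 to 26.1) and Cacna1c (16.7 to 21.9) each range again overlapped the next.

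Arranged by the currents of the heart, the genes of some currents were all expressed and those of others were not. All 7 genes listed for the L-type calcium current were expressed, and both genes for each of the T-type calcium, acetylcholine-activated and slow delayed rectifier currents. All 3 genes listed for the pacemaker current passed, with Hcn4 only just. Of the sodium channel β subunits, Scn2b, Scn3b and Scn4b had means of 0.00873, 0.0254 and 0.0119 FPKM. The rapid delayed rectifier had Kcnh2 but not Kcne2, its proposed partner, at 0.248 FPKM.

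None of the 3 inward rectifiers of the IK1 current, which holds the resting potential, was expressed. Kcnj2 had a mean of 0.00651 FPKM and at most 0.0219, Kcnj12 had 0.0711 and Kcnj4 0.358. The 4 genes of the transient outward current, which shapes early repolarisation, were also under the threshold: the pores Kcnd2, Kcnd3 and Kcna4 had means of 0.104, 0.0175 and 0.177 FPKM, and the auxiliary subunit Kcnip2 had 0.167. Some pores of the ultrarapid and sustained potassium currents were at trace level as well. Kcna5, the pore of the atrial ultrarapid current, had 0.0216 FPKM (at most 0.0723), Kcna2 had 0.00469 and Kcnc1 0.0891. None of 5 genes for small- and large-conductance calcium-activated channels passed, the highest being Kcnn1 at 0.388 FPKM. Kcnk1, Kcnk2 and Kcnk6, leak channels listed with Kcnk3, had 0.0131, 0.0501 and 0.0186 FPKM.

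The 58 genes that never exceeded 0.1 FPKM came from every class except HCN. Among voltage-gated potassium pores they were Kcna1, Kcna2, Kcna3, Kcna5, Kcna6, Kcnb2, Kcnc2, Kcnc4, Kcnd3, Kcnf1, Kcng3, Kcnh1, Kcnh5, Kcnh7, Kcnh8, Kcnq3, Kcns1, Kcns2, Kcnv1 and Kcnv2. The two-pore-domain genes were Kcnk1, Kcnk5, Kcnk6, Kcnk7, Kcnk9, Kcnk10, Kcnk12, Kcnk13, Kcnk16 and Kcnk18. The inward rectifiers were Kcnj1, Kcnj2, Kcnj8, Kcnj10 and Kcnj13, the activated pores Kcnma1, Kcnn3 and Kcnt2, and the auxiliary subunits Kcne3, Kcnip3, Kcnmb1, Kcnmb2 and Kcnmb3. Kcnmb4os1 and Kcnq1ot1 also belonged here. Calcium channels contributed Cacna1e, Cacng1, Cacng2, Cacng3, Cacng5 and Cacng6, and sodium channels Scn1a, Scn3a, Scn7a, Scn8a, Scn11a, Scn2b and Scn4b.

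Summed over all members of a class, channel transcripts of the potassium class took 66.4% of the set's FPKM in vehicle, the calcium class 26.8%, HCN channels 5.37% and the sodium class 1.45%. The potassium sum was 409 ± 25.7 FPKM with vehicle, 385 ± 10.8 with ivermectin and 386 ± 9.79 with importazole (SD, n = 3 each). The calcium sums were 165 ± 6.73, 157 ± 9.18 and 164 ± 5.24 FPKM in the same order. For sodium channels they were 8.94 ± 0.809, 8.46 ± 0.230 and 8.78 ± 0.466 FPKM. Ranges of the compound groups overlapped those of vehicle for these 3 classes.

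The HCN sum alone separated, at 31.3 to 34.8 FPKM with vehicle and 27.99 to 30.9 with ivermectin. With importazole it was 30.4 to 32.1 FPKM, which overlapped vehicle. No test was made of these sums. In bulk RNA, fewer cells of a type and less RNA per cell cannot be told apart.

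No channel gene passed the test between ivermectin and vehicle, with limma's Benjamini-Hochberg adjusted p under 0.05 as the threshold, whereas 4.31% of all 11337 genes tested did (1.79% higher and 2.52% lower). At an unadjusted p under 0.05 there were 11 of 33 channel genes, 2 higher and 9 lower, against 10.5% of all genes higher and 10.3% lower (20.7% in all). Libraries of the 2 groups did not overlap for 11 genes, 2 higher (12.4% of all genes) and 9 lower (12.2%). By ion, the log2 change was below 0 for 14 of 16 potassium genes, 6 of 11 calcium genes, 2 of 3 sodium genes and 3 of 3 HCN genes, against 46.7% of all genes. The median log2 change was -0.15 for potassium, -0.0038 for calcium, -0.03 for sodium and -0.21 for HCN genes, beside 0.01 over all genes. The counts of lower genes include Hcn4, and the count below 0 also includes Kcnab3. Both genes passed the filter through their levels in vehicle and so cannot support these counts.

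Several marker lists also had summed levels that did not overlap between ivermectin and vehicle. The atrial list was 6230 to 7091 FPKM with vehicle and 5175 to 5593 with ivermectin. Its members Nppa (means of 163 FPKM with vehicle and 192 with ivermectin) and Ryr2 (9.38 and 9.62) went the other way. With importazole Nppa had a mean of 250.3 FPKM, and Sln, Tnnt2, Gja5, Ryr2 and Nppb also had higher means than with vehicle. The importazole means of Myl7, Myl4, Actc1 and Myh6 were lower than those of vehicle. The ventricular list was 42.8 to 53.6 FPKM with vehicle and 31.9 to 39.2 with ivermectin, the smooth muscle list 1347 to 1404 and 1158 to 1279, the neuronal list 10.8 to 11.6 and 7.83 to 9.92, and the endothelial list 10.3 to 11.2 and 8.97 to 9.93. The nodal, skeletal muscle, fibroblast and immune lists overlapped. With importazole the ventricular (35.9 to 40.0 FPKM), smooth muscle (1173 to 1285) and skeletal muscle lists (12.8 to 14.0, against 16.1 to 19.5 with vehicle) lay under vehicle. The nodal list lay above it, at 14.7 to 16.0 FPKM against 12.4 to 14.3, and the other 5 overlapped. Such sums follow their most abundant members. In the ventricular list only Myh7 had lower means, at 45.3 FPKM with vehicle, 29.6 with ivermectin and 34.0 with importazole. The neuronal sum was mostly Map2, at means of 10.2 FPKM with vehicle and 7.98 with ivermectin. With importazole the nodal members Tbx18 and Bmp4 had lower means than with vehicle, and the others had higher ones. The part of these lists in the channel values was not tested.

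Potassium genes nearest the threshold went both ways with ivermectin. The leak channel Kcnk3 was at 9.31, 10.3 and 10.1 FPKM in the vehicle libraries and at 7.07, 6.81 and 8.36 in the ivermectin libraries, without overlap (log2 change -0.37, SE 0.105, limma adjusted p = 0.0759). Kcne1 was at 46.2, 35.3 and 37.8 FPKM with vehicle and 48.1, 48.5 and 53.8 with ivermectin, a log2 change of 0.33 (limma adjusted p = 0.0899). All ivermectin libraries were above all vehicle libraries, although vehicle library 1 came close. Kcne1 passed under quantile normalization (limma adjusted p = 0.0345), median-of-ratios scaling (0.0494) and without vehicle library 1 (0.0238), so its call turned on the scaling and on 1 library. Kcna7 was at 2.27, 2.29 and 1.93 FPKM with vehicle and 1.44, 1.79 and 1.28 with ivermectin (log2 change -0.34, limma adjusted p = 0.105).

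In the calcium class the α2δ subunit Cacna2d3 was at 1.93, 2.21 and 2.20 FPKM with vehicle and 2.73, 3.10 and 3.07 with ivermectin. The groups did not overlap (log2 change 0.35, limma adjusted p = 0.0719), and 1 of 18 alternative fits made the call, the one with neither the intensity trend nor robust moderation (limma adjusted p = 0.0439). The L-type pores had lower means, with Cacna1d at 2.74 ± 0.157 and 2.20 ± 0.136 FPKM (log2 change -0.23) and Cacna1c at 19.3 ± 1.37 and 17.0 ± 0.294 (log2 change -0.17). Neither passed the test.

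Hcn4, the main pacemaker channel of the sinus node, was at 1.51, 1.57 and 1.31 FPKM with vehicle, 0.986, 0.804 and 0.982 with ivermectin, and 1.18, 0.808 and 0.973 with importazole. All libraries of both compounds were under the vehicle libraries. Since Hcn4 passed the filter through its vehicle libraries, these levels are a description, and it had no call in either comparison. Hcn2 had 12.8 ± 0.914 and 12.4 ± 0.881 FPKM, with overlap.

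**Figure D3:**
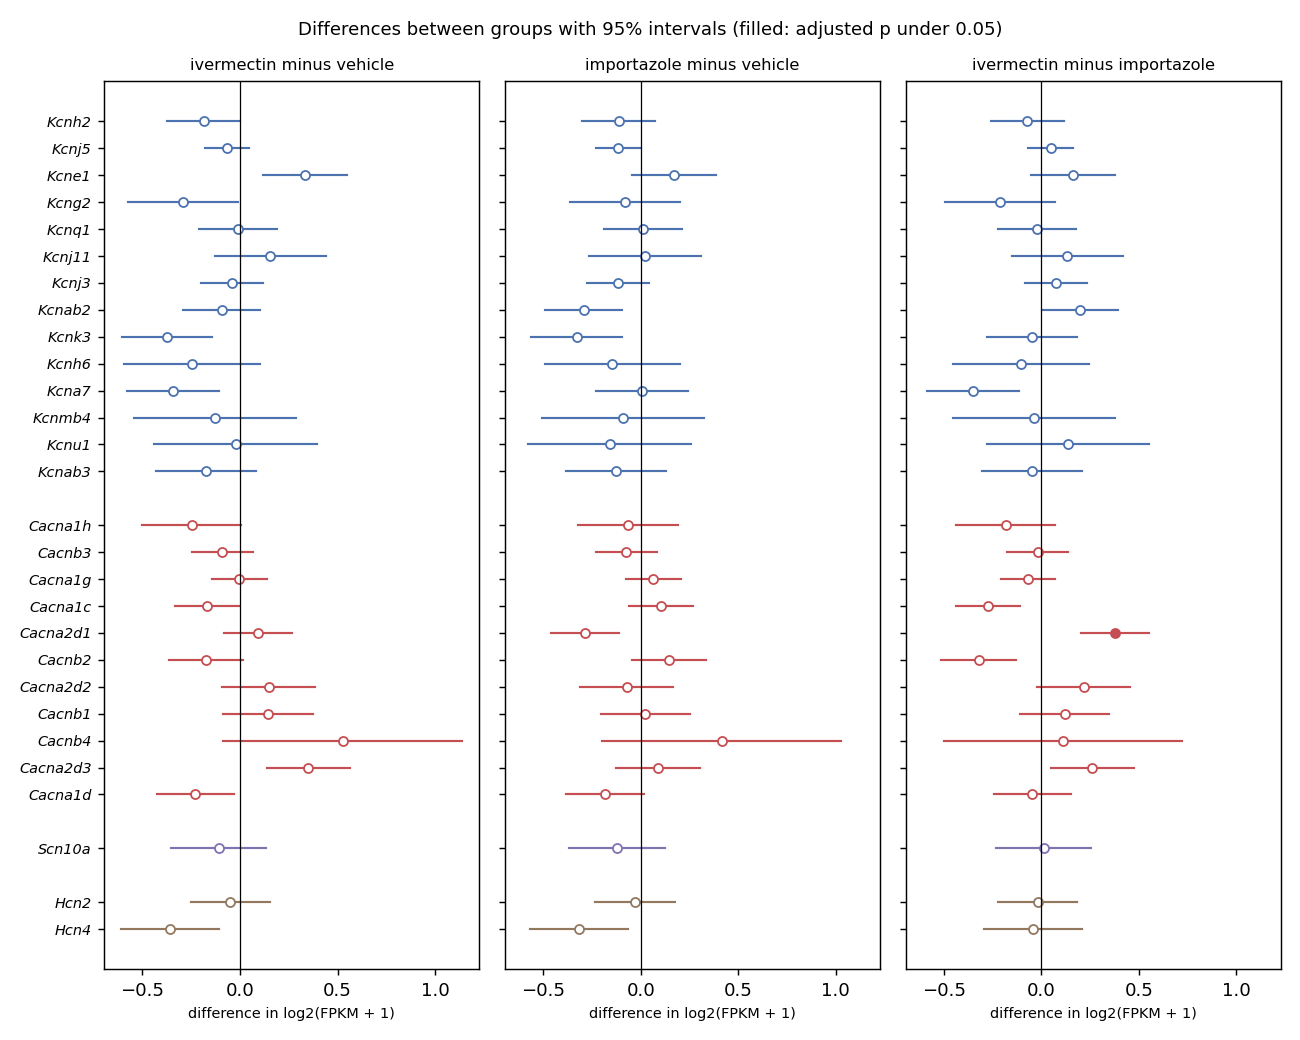
Difference in mean log2(FPKM + 1) for 28 of the 33 tested channel genes in the 3 comparisons, with 95% confidence intervals, grouped by ion. Intervals of most genes cross 0, and Cacna2d1 between ivermectin and importazole is the 1 gene past the limma threshold.

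Importazole against vehicle likewise gave no channel gene past the limma threshold, against 2.26% of all genes (1.69% higher and 0.565% lower). An unadjusted p under 0.05 was found for 6 of 33, all lower, while 11.3% of all genes were higher and 4.48% lower. Libraries did not overlap for 10 genes, all lower, against 16.5% of all genes higher and 7.07% lower. The log2 change was below 0 for 12 of 16 potassium, 5 of 11 calcium, 1 of 3 sodium and 3 of 3 HCN genes, 21 of 33 in all, against 38.5% of all genes. Hcn4 is again among the lower genes in these counts, and Kcnab3 is among those without overlap and those below 0. Under quantile normalization or median-of-ratios scaling, 25 of 33 were below 0, with Cacnb1, Kcna7, Kcnj11 and Kcnq1 turning sign. Since both comparisons use the same vehicle libraries, their values are given side by side and their likeness is not read.

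Genes nearest the threshold with importazole were Cacna2d1, Kcnab2 and Kcnk3. Kcnab2 was at 9.32, 10.8 and 10.6 FPKM with vehicle and 8.29, 7.85 and 8.36 with importazole (log2 change -0.29, limma adjusted p = 0.132). Kcnk3 was at 6.68, 7.66 and 8.78 FPKM with importazole, all under the vehicle libraries (log2 change -0.33, limma adjusted p = 0.153). For Kcnj5 the difference was small, at 83.1 ± 1.93 and 76.7 ± 1.26 FPKM (log2 change -0.11).

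The single channel gene past the test was Cacna2d1 (chr5:15934691-16374511, plus strand), between ivermectin and importazole, where 3.42% of all genes passed (0.714% higher and 2.71% lower with ivermectin). Its product is the main cardiac α2δ subunit of L-type channels and a binding site of gabapentin-type drugs. Cacna2d1 was at 15.6, 16.6 and 17.0 FPKM with ivermectin, 12.2, 11.7 and 13.4 with importazole, and 14.7, 14.7 and 16.7 with vehicle. All ivermectin libraries lay above all importazole libraries, and the vehicle libraries lay between or among the ivermectin ones. The log2 change was 0.38 (95% interval 0.20 to 0.55, limma adjusted p = 0.0285). Across 19 alternative fits the adjusted p ranged from 0.0156 to 0.119, and the call was lost in 7: without any 1 of the 3 ivermectin libraries, without importazole library 1 or 2, without a filter, and without both vehicle library 2 and ivermectin library 3. Against vehicle, Cacna2d1 had a log2 change of 0.09 with ivermectin and -0.29 with importazole (limma adjusted p = 0.0999), neither past the threshold.

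Cacna1c and Cacnb2, also of L-type channels, had lower means with ivermectin than with importazole. Neither passed the test in the reported fit or any of 19 alternatives. The other genes listed for the L-type current, beside Cacna2d1, went both ways, with Cacnb1 and Cacna2d2 higher and Cacnb3 and Cacna1d lower. The pore Cacna1c was at 16.7, 17.1 and 17.3 FPKM with ivermectin and 19.3, 21.3 and 21.9 with importazole, with no overlap (log2 change -0.27, limma adjusted p = 0.0755). Cacnb2, the main cardiac β subunit, was at 10.3, 11.8 and 11.8 FPKM with ivermectin and 14.3, 14.8 and 13.8 with importazole (log2 change -0.32, limma adjusted p = 0.0730). Cacna2d3 had a log2 change of 0.26, like Cacna2d1 higher with ivermectin. All 4 calcium pores were below 0 in this comparison and all 3 α2δ subunits above 0, beside 57.1% of all genes below 0, and Cacna2d1 was the only one of these 7 to pass. The β subunits were split, with 2 above 0 and 2 below, and none of them passed.

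In all, 6 of 33 channel genes had an unadjusted p under 0.05 between the compounds, 3 higher and 3 lower with ivermectin, against 6.13% of all genes higher and 12.8% lower. Groups did not overlap for 11, 5 higher (8.04% of all genes) and 6 lower (16.1%). By ion, 1 of 11 calcium genes passed, and none of the 16 potassium, 3 sodium and 3 HCN genes did. Kcna7 was the potassium gene nearest the threshold, at 1.502 ± 0.261 FPKM with ivermectin and 2.18 ± 0.126 with importazole (log2 change -0.35, limma adjusted p = 0.109). No sodium gene had an unadjusted p under 0.05 in any of the 3 comparisons.

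**Figure D4:**
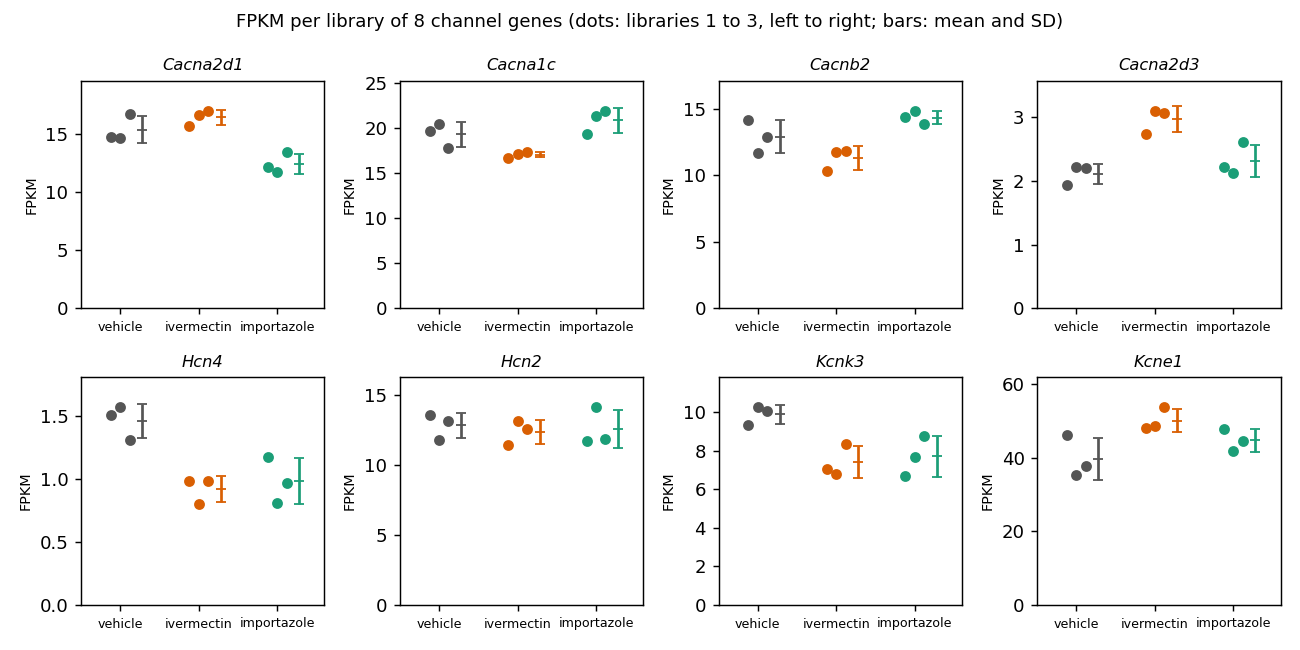
FPKM of 8 channel genes in each library, with 1 dot per library and bars at the group mean ± SD (n = 3). Cacna2d1 passes the test between ivermectin and importazole, Cacna1c, with a lower mean in the ivermectin group, does not (limma adjusted p = 0.0755), and no ivermectin library of Hcn4 reaches 1 FPKM.

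Genes outside the set that bind or regulate channels were taken from a list of 44, of which 28 were tested. Rrad, a small GTPase of the RGK family that inhibits L-type channels, fell with both compounds. Its level was 99.6 ± 10.99 FPKM with vehicle, 53.2 ± 6.18 with ivermectin (log2 change -0.89, limma adjusted p = 4.58e-04) and 60.7 ± 3.14 with importazole (log2 change -0.70, limma adjusted p = 0.00358). Both calls held in 19 of 19 alternative fits.

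Atp1b1, a subunit of the sodium pump, fell from 351 ± 4.25 FPKM to 285 ± 14.2 with ivermectin (log2 change -0.30, limma adjusted p = 0.0195) and 282 ± 15.4 with importazole (log2 change -0.31, limma adjusted p = 0.0234). The call with ivermectin was lost in 7 of 19 alternative fits (limma adjusted p up to 0.112): without any 1 vehicle library, without ivermectin library 1, without both vehicle library 2 and ivermectin library 3, without a filter, and with the 6 libraries alone. The call with importazole was lost in 8 of 19 (limma adjusted p up to 0.106): without any 1 vehicle library, without importazole library 1 or 3, without both vehicle library 2 and ivermectin library 3, without a filter, and with neither trend nor robust moderation. Of the 28 tested partners 3 passed with ivermectin and 2 with importazole, all lower, and none passed between the compounds, where 4 had an unadjusted p under 0.05 by limma. Rangrf, a protein of channel trafficking, had a mean of 0.206 FPKM and was not tested.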

How the data were processed

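The authors deposited 1 table of FPKM per library, per the file headers a gene symbol and its value. STAR, Bowtie, Bowtie2 and Cufflinks, without versions, and the builds mm10 and GRCm38 stand in the submitters' processing notes. Annotation, strand use and filters: not given in the sources used here. Groups came from the labels.

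Values of repeated symbols (48, no channel gene among them) were summed. Low values of 2983 single-transcript genes were within 10% of a whole multiple in at most 41.9% of cases, so reads were not recovered. Genes with 1 FPKM in 3 libraries (11337) were tested on log2(FPKM + 1), which understates changes of low genes, with limma 3.58.1 in R 4.3.3. All 9 libraries shared 1 fit with trend and robust moderation, two-sided, with Benjamini-Hochberg adjustment over all genes and a threshold of 0.05. The procedure was tested on simulated data. Positions are from GENCODE M21, matched by symbol for all 141 genes. Figures used Python 3.11.15 and matplotlib 3.10.9.

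Members, lists and tests were chosen with earlier results of these data known. Named by rule were genes past the threshold, the 10 highest, the 3 on each side of the expression rule, the cardiac current list and partners past the threshold, with Rrad and Rangrf. Other named genes were chosen after their values were seen, and some genes these rules name are not reported here or drawn. Alternatives were pseudocounts of 0.1 and 0.5, no filter, 5 FPKM, other scalings, neither trend nor robust moderation, 6 libraries, a replicate block, other thresholds and left-out libraries.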

Additional observations from a re-analysis of the deposited data

How the results depend on the processing

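No channel gene or channel partner past the limma threshold changed sign under any alternative run, and the signs of other called genes were not compared. Between ivermectin and vehicle, 489 genes passed the limma threshold, and 211 without a filter, 274 with the 6 libraries alone, 195 without vehicle library 2 and ivermectin library 3, and 243 to 399 with 1 library left out. Among channel genes the count of 0 became 1 with quantile normalization, 1 with median-of-ratios scaling, 1 with neither trend nor robust moderation, 3 at an adjusted p under 0.1, and 0 to 1 with 1 library left out. Between importazole and vehicle, 256 genes passed, and 133 without a filter, 161 without those same libraries and 128 to 320 with 1 left out. The channel count of 0 became 1 at an adjusted p under 0.1 and remained 0 with 1 library left out. Between the compounds, 388 genes passed, and 177 without a filter, 257 with the replicate block, 233 without vehicle library 2 and ivermectin library 3, and 177 to 396 with 1 left out. The channel count of 1 became 0 without a filter, 0 without those libraries, 0 at an adjusted p under 0.01, 3 under 0.1, and 0 to 1 with 1 left out. With 0.1 FPKM as the limit, 58 channel genes counted as unexpressed where 0 did when listed at 0. The cause of these moves was not tested.

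Deviations from the group mean were compared between libraries with the same replicate number. Their correlations were -0.21 to 0.06 between ivermectin and vehicle, -0.05 to 0.08 between importazole and vehicle and 0.02 to 0.14 between the compounds. With 3 libraries a group, such values cannot settle whether the numbers pair the samples. With the replicate block 354, 175 and 257 genes passed, and 0, 0 and 1 channel genes. Depth is unknown, so a trace value could not be told from 0, and 3 libraries a group limit every interval.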

Other observations

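Some low calcium channel genes varied more between libraries of a group than between groups. Cacnb4, a β subunit known from brain, was at 1.86, 2.45 and 1.31 FPKM with vehicle, 2.03, 2.86 and 4.80 with ivermectin, and 1.75, 4.55 and 2.53 with importazole. These values may include reads of the opposite-strand gene A430018G15Rik. Cacna1a, a neuronal pore, was at 0.304, 1.24 and 2.20 FPKM in the importazole libraries and at 0.207 to 0.885 in the other 6. Cacna1i, a T-type pore of neurons, was at 1.12 FPKM in ivermectin library 2 and at 0.0227 to 0.153 in the other 8. These genes were chosen after their values were seen. Cacnb4 did not pass the test in any comparison, and Cacna1a and Cacna1i were below the filter and not tested in the reported fit.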
